A study of Mus musculus with 8 samples.

Results

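The subject is the set of 8 genes that encode the subunits of the 2 vertebrate condensin complexes: Smc2 and Smc4, which both complexes share, Ncapd2, Ncapg and Ncaph of condensin I, and Ncapd3, Ncapg2 and Ncaph2 of condensin II. The members were chosen by name, and all of their probe sets that carry exactly 1 gene symbol were used. That gave 22 probe sets of 34758, for 8 of 18140 genes on the array. The study measured RNA in V6.5 cells, an established line of mouse embryonic stem cells, on 8 one-colour Affymetrix arrays in 4 groups of 2. Every culture, controls included, was infected with a virus carrying a short hairpin RNA in 8 µg/ml polybrene and selected in 4 µg/ml puromycin for 4 days, and RNA was taken after 5 days. The CapH2 group (gene Ncaph2) was hairpin 3 on 1 array and hairpin 4 on the other. The Smc2 group was hairpin 1 and hairpin 2, again 1 array each. The Smc1 group, in which the cohesin gene Smc1a is the target, and the GFP control were 2 biological replicates of 1 hairpin each, so an effect of that 1 hairpin on other genes cannot be told apart from an effect of its target. None of the hairpins was made against Smc4, Ncapd2, Ncapg, Ncaph, Ncapd3 or Ncapg2, which are called the untargeted subunits here.

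Condensins are ring-shaped ATPases that fold chromosomes. Smc2 and Smc4 are the paired coiled-coil ATPases, Ncaph or Ncaph2 is the kleisin that closes the ring between their heads, and Ncapd2 with Ncapg, or Ncapd3 with Ncapg2, are the HEAT-repeat subunits that bind the kleisin and DNA. Condensin II is in the nucleus throughout the cell cycle and condensin I reaches the chromosomes after the nuclear envelope breaks down. Embryonic stem cells divide fast and express both complexes.

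The promoters of the subunits were read for letters known from genes that peak in G2 and mitosis, a phase of the cell cycle in which condensin genes are known to be high. The letters were TTTGAA and its variant TTCGAA (the cell cycle genes homology region, CHR) and CCAAT, searched on both strands. RefSeq windows of the mouse assembly GRCm38.p6, from 250 bases before to 50 bases after a gene's start, were at hand for 7 of the 8 members as 8 windows, with 2 windows for Ncapd3 and none read for Smc4. TTTGAA was in 5 of these 8 windows against 17.9% of 32851 windows of all genes, and TTTGAA or TTCGAA was in 6 against 19.2%. CCAAT was in 3 of 8 against 37.4%. The windows below are printed 5′ to 3′ on the gene's strand, with every match in capitals, because they hold CHR letters within the last 30 bases before the start (Ncapg at -30, Ncapg2 at -18, Ncaph2 at -22) or all 3 CCAAT boxes of 1 window (Ncapd2). They lie at chr5:45669675-45669974 on the plus strand, chr12:116405186-116405485 on the plus strand, chr15:89355469-89355768 on the plus strand and chr6:125191537-125191836 on the minus strand, in that order.
Ncapg: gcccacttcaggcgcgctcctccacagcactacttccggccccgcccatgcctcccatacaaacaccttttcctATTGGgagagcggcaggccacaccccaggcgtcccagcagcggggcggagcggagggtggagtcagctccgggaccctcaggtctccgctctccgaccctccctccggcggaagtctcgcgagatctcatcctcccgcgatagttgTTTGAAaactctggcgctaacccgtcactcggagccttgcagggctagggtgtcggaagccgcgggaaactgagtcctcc
Ncapg2: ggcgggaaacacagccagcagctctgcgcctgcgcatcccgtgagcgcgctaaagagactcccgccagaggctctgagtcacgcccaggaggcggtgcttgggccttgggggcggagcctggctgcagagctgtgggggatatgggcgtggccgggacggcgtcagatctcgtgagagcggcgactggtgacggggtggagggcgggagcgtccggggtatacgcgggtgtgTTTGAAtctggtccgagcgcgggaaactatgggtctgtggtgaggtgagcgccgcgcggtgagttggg
Ncaph2: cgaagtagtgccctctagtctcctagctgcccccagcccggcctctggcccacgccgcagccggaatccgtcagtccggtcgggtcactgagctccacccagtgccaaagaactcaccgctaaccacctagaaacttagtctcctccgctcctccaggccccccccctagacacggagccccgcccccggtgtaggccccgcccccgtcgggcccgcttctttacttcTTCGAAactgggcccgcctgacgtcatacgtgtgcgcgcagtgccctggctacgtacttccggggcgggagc
Ncapd2: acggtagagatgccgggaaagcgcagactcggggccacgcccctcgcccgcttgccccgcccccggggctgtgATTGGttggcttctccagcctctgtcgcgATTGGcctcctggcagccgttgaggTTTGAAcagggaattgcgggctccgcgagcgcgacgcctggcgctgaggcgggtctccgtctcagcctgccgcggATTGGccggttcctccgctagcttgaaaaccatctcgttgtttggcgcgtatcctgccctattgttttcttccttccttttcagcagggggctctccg

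In Ncapd2 the TTTGAA lay at -123, and ATTGG, which is CCAAT on the other strand, began at -177, -148 and -48. Smc2 had TTTGAA at -145 and again at 26 bases past the start, read from the other strand. The second Ncapd3 window had it at -249, and neither Ncaph nor the first Ncapd3 window had any of the letters. A match is a description of the letters and not evidence of binding. The array data below do not test these sites.

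Values are the deposited linear intensities per probe set, which compare 1 probe set between arrays but not 1 gene with another. Array means trimmed by 2% lay between 488.9 and 490.0, and medians between 62.5 and 74.5. Over 12400 genes tested, arrays of the same group correlated at a Pearson's r of 0.968 to 0.981 (4 pairs) and arrays of different groups at 0.914 to 0.985 (24 pairs). As a check of the labelled cell type, 10 of 10 embryonic stem cell markers were above the array median on all 8 arrays, as were 3 of 14 fibroblast markers, with 4 of the 14 above it on 0 arrays. The summed intensity of the stem cell markers was 135796 to 139903 on GFP arrays, 117851 to 123836 on CapH2, 126645 to 132930 on Smc2 and 83350 to 101171 on Smc1. Smc1a, the target of the Smc1 hairpin, was 535 and 454 on the Smc1 arrays against 4165 and 3662 on GFP.

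The CapH2 hairpins lowered Ncaph2, the kleisin of condensin II, to 12.5% of its control level. On its brightest probe set, 1423698_at, intensity was 398 with hairpin 3 and 430 with hairpin 4, against 3469 and 3168 on the GFP arrays. The Smc2 arrays read 2134 and 3049 and those of Smc1 2294 and 3075. Both CapH2 arrays were far below all others, and the Smc2 and Smc1 arrays also lay below both GFP arrays. As a share of the GFP mean, hairpin 3 left 12.0% and hairpin 4 left 12.9%. The log2 change was -2.96 (SE 0.218, limma adjusted p = 0.00119, n = 2 arrays a group). In this comparison Ncaph2 was the 1 subunit of 8 that was called at an adjusted p under 0.05, where 0.0161% of all genes tested were called. The call was lost without GFP replicate 1 (adjusted p = 0.0928), without GFP replicate 2 (0.0617) and with the mean over probe sets in place of the brightest (change -1.44, adjusted p = 0.0676).

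The 4 Ncaph2 probe sets differed in how far they fell. 1439360_x_at was 738 and 870 with the CapH2 hairpins against 1892 and 2570 on GFP, which is 36.0% of the GFP mean. 1423699_at was 100.2 and 67.9 against 195.5 and 209.8, or 41.5%. Both sets had their CapH2 arrays below both GFP arrays, where 23.1% of all probe sets did. Their adjusted p was 0.0916 and 0.183 in the limma fit over 21730 probe sets, in which 0.0092% were called. 1429477_at was 311 with hairpin 3 and 510 with hairpin 4 against 457 and 486 on GFP, so that its groups overlapped (change -0.23, adjusted p = 0.749). That probe set read 66.1% of the GFP mean for hairpin 3 and 108% for hairpin 4, while the brightest read 12.0% and 12.9%. Whether 1429477_at reports the same transcript as the others was not tested.

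The Smc2 hairpins lowered Smc2, an ATPase of both condensins, to 32.0% of control. On 1448635_at intensity was 2234 with hairpin 1 and 2859 with hairpin 2, against 8756 and 7146 on GFP. CapH2 arrays read 6088 and 7094 and those of Smc1 6466 and 6005. The Smc2 arrays were the lowest, and those of the other knockdowns lay between them and both GFP arrays. Hairpin 1 left 28.1% of the GFP mean and hairpin 2 left 36.0%. The log2 change was -1.64 (SE 0.172, limma adjusted p = 0.0157), and Smc2 was the 1 subunit of 8 called, again where 0.0161% of all genes were called. The call was lost without Smc2 hairpin 1 (change -1.46, adjusted p = 0.0849), without either Smc1 array (0.0697 and 0.0684), and without GFP replicate 1 (-1.49, 0.158) or GFP replicate 2 (-1.79, 0.119). It was also lost with the groups compared alone (0.0725), without the intensity trend (0.109), and with the mean over probe sets (-1.40, 0.178).

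Smc2 stood about as low on 3 of its 4 other probe sets. The Smc2 group stood at 30.8% of the GFP mean on 1429660_s_at, 27.1% on 1429658_a_at and 29.3% on 1429659_at, with limma adjusted p of 0.0784, 0.0784 and 0.152, and none of these groups overlapped (24% of all probe sets had both Smc2 arrays below both GFP arrays). Hairpin 1 left less than hairpin 2 on each of them: 24.2% against 37.4%, 19.9% against 34.3% and 20.3% against 38.2%. The fifth, 1458479_at, was 130 and 297 against 336 and 189 on GFP, so that the groups overlapped (81.4% of the GFP mean, change -0.33, adjusted p = 0.781). This probe set varied more than the others, with an SE of 0.458 in log2 against 0.173 for the brightest.

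**Figure D1:**
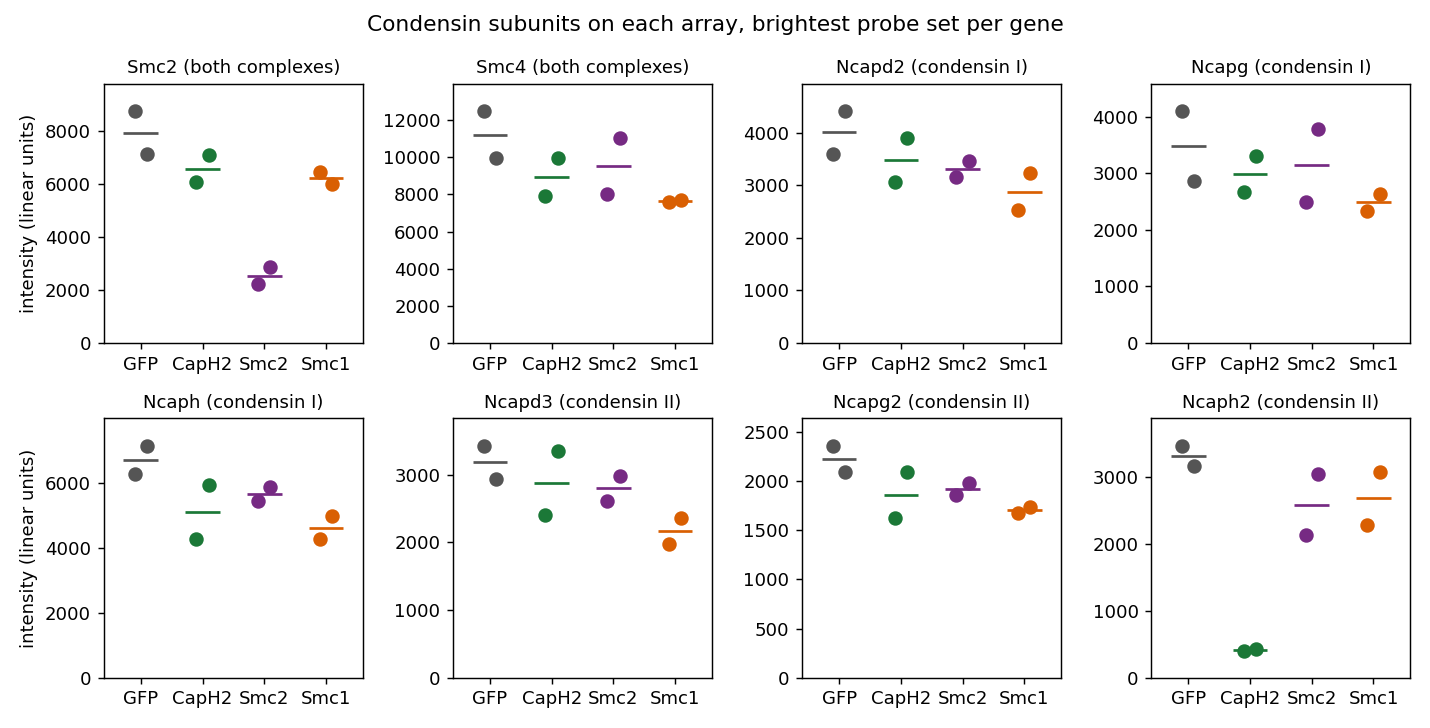
Intensity (linear units, axis from 0) of the brightest probe set of each condensin subunit on every array, by group. Points are arrays and lines are group means. Ncaph2 drops on the CapH2 arrays (398 and 430) and Smc2 on the Smc2 arrays (2234 and 2859), and in every panel the GFP group has the highest mean.

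**Figure D2:**
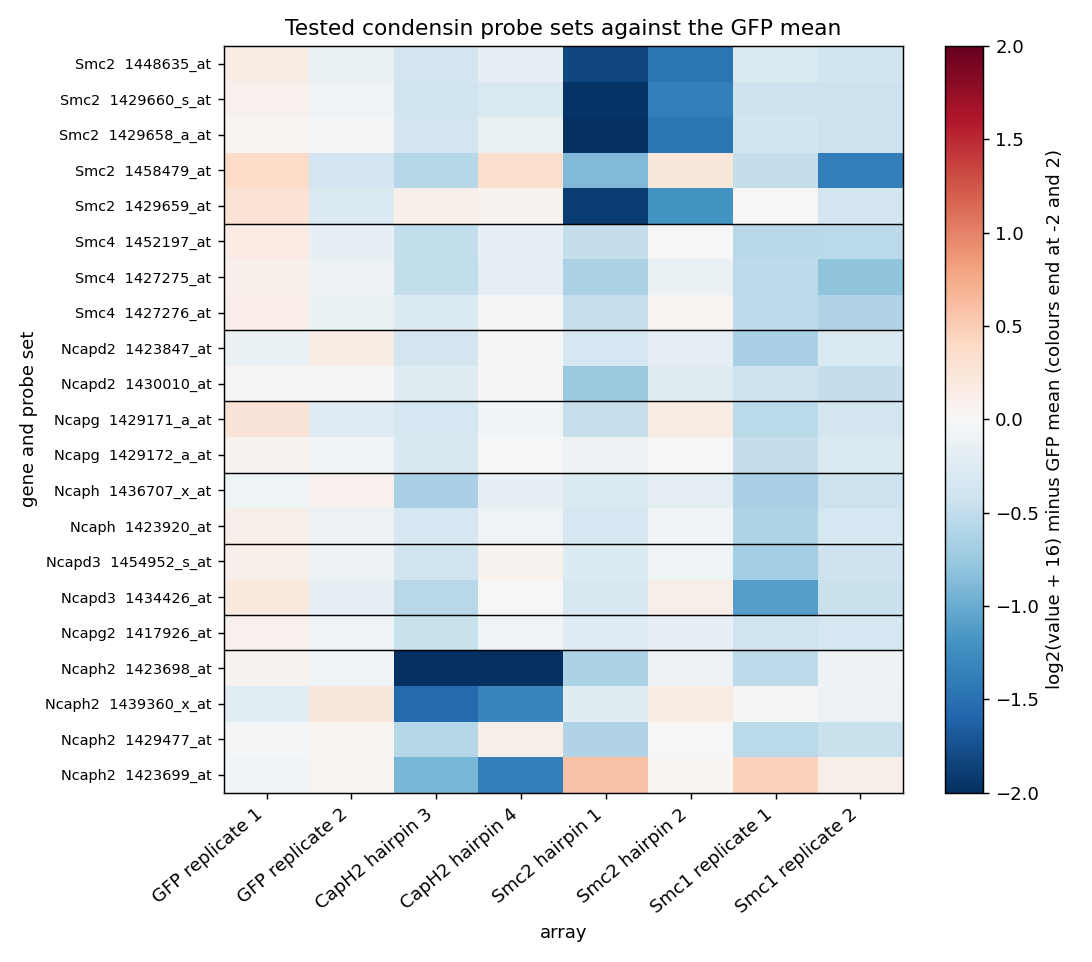
Log2(value + 16) of the 21 tested condensin probe sets on each array, minus the mean of the GFP arrays, with blue lower and red higher and colours ending at -2 and 2. The Ncaph2 and Smc2 probe sets are darkest on the arrays of their own hairpins, apart from 1429477_at and 1458479_at, and CapH2 hairpin 3, Smc2 hairpin 1 and the Smc1 arrays are blue in all probe sets of the untargeted subunits.

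Smc4, the ATPase partner of Smc2, kept most of its RNA in each knockdown. On 1452197_at intensity was 12475 and 9957 in GFP, 7931 and 9957 in CapH2, 8013 and 11034 in Smc2 and 7600 and 7678 in Smc1, the hairpins of a pair in the order given above. The Smc1 arrays were the lowest, CapH2 hairpin 4 was within 1 unit of GFP replicate 2, and the Smc2 arrays overlapped those of GFP. The log2 change was -0.33 in CapH2 (adjusted p = 0.475), -0.24 in Smc2 (0.589) and -0.54 in Smc1 (0.0766), all with an SE of 0.184. So where Smc2 stood at 32.0% of the GFP mean, its partner stood at 84.9%. Its other probe sets gave -0.38 and -0.20 in Smc2 and -0.67 and -0.56 in Smc1 (adjusted p = 0.448, 0.701, 0.0551 and 0.100).

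Of condensin I, the kleisin Ncaph had the largest difference in the CapH2 group after Ncaph2 itself. On 1436707_x_at it was 6284 and 7127 on GFP, 4268 and 5945 on CapH2, 5451 and 5876 on Smc2 and 4255 and 4984 on Smc1. All 6 knockdown arrays were below both GFP arrays. The log2 changes were -0.41, -0.24 and -0.54 in CapH2, Smc2 and Smc1 (SE 0.179, adjusted p = 0.389, 0.584 and 0.0726). The other probe set, 1423920_at, gave -0.21, -0.20 and -0.49, with only the Smc1 arrays apart from GFP.

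Neither HEAT-repeat subunit of condensin I passed the test in any knockdown. Ncapd2 (1423847_at) was 3607 and 4411 on GFP, 3075 and 3897 on CapH2, 3155 and 3467 on Smc2 and 2536 and 3230 on Smc1. Here the Smc2 and Smc1 arrays lay below both GFP arrays and the CapH2 arrays overlapped them. Changes were -0.20, -0.27 and -0.48 (SE 0.190, adjusted p = 0.665, 0.566 and 0.120). Its other probe set, 1430010_at, gave -0.11, -0.49 and -0.44 (limma adjusted p = 0.876, 0.419 and 0.256). Ncapg (1429171_a_at) was 4096 and 2864 on GFP, 2672 and 3304 on CapH2, 2495 and 3785 on Smc2 and 2341 and 2641 on Smc1. The GFP arrays of Ncapg were further apart than its group means, and only the Smc1 arrays lay below both. Changes were -0.20, -0.16 and -0.46 (SE 0.240, adjusted p = 0.740, 0.799 and 0.225). Without GFP replicate 1 the sign turned in CapH2 (0.053) and Smc2 (0.10), and without Smc2 hairpin 1 in Smc2 (0.14). The other Ncapg probe set, 1429172_a_at, gave -0.15, -0.058 and -0.39 (limma adjusted p = 0.777, 0.924 and 0.244).

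In condensin II, neither partner of Ncaph2 passed the test where Ncaph2 was lowered. Ncapd3 (1454952_s_at) was 3424 and 2945 on GFP, 2413 and 3347 on CapH2, 2613 and 2990 on Smc2 and 1979 and 2367 on Smc1. CapH2 hairpin 3 and hairpin 4 lay on either side of GFP replicate 2, and only the Smc1 arrays were below both controls. Changes were -0.16, -0.18 and -0.55 (SE 0.198, adjusted p = 0.758, 0.714 and 0.0913). The sign turned in CapH2 without hairpin 3 (0.076) and in Smc2 with the mean over probe sets (0.13). Ncapg2 (1417926_at, its only probe set) was 2355 and 2089 on GFP, 1622 and 2089 on CapH2, 1855 and 1983 on Smc2 and 1679 and 1732 on Smc1. The Smc2 and Smc1 arrays were below both GFP arrays, and CapH2 hairpin 4 matched GFP replicate 2 to within 1 unit. Changes were -0.27, -0.21 and -0.38 (SE 0.179, adjusted p = 0.544, 0.637 and 0.185). Of the other Ncapd3 probe sets, 1434426_at gave -0.28, -0.11 and -0.77 (adjusted p = 0.706, 0.898 and 0.110), and 1430782_at was at 11.5 to 64.1 intensity units, above the array median on 0 of 8 arrays, and was not tested.

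Set by level, GFP had the highest mean for 8 of 8 subunits, and Smc1 the lowest for 6 of the 6 untargeted ones. The share of all genes with the same order or separation was not counted, so these counts only describe the subunits. The Smc1 arrays stood apart from the group with the next mean for 3 of these (Ncapd3, Ncapg and Smc4). They overlapped it for Ncapd2, Ncapg2 and Ncaph. For Ncapg that next group was CapH2, and the Smc1 arrays still overlapped Smc2. There Smc1 replicate 2 read 2641 and Smc2 hairpin 1 read 2495. GFP stood apart from the group with the next mean for Ncapg2 and Ncaph. For Ncapg2 that next group was Smc2, and GFP still overlapped CapH2, by less than 1 unit. The CapH2 and Smc2 groups overlapped for all 6 untargeted subunits, so their order does not differ beyond their spread. For Ncaph2 the order was GFP, Smc1, Smc2 and CapH2, with only the middle groups overlapping, and for Smc2 it was GFP, CapH2, Smc1 and Smc2, with the same overlap.

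Of the 3 knockdowns, that of cohesin had the lowest means of the untargeted subunits, with no subunit past the threshold. All 8 subunits had both Smc1 arrays below both GFP arrays, where 28.4% of all genes tested did. At an adjusted p under 0.05, limma called 0 of the 8, where 14.1% of all genes were called and 4.69% were called lower. At an unadjusted p under 0.05 it was 4 of 8 (Ncapd2, Ncapd3, Ncaph and Smc4), where 31.2% of all genes passed. All 8 changes were below 0 (47.7% of all genes were) and ran from -0.55 to -0.32, with a median of -0.51 over the 6 untargeted subunits beside 0.028 over all genes. With only the Smc1 and GFP arrays in the fit, Ncapd3, Ncaph and Smc4 passed (limma adjusted p = 0.0416, 0.0308 and 0.0257). Calls rose over all genes in that fit, to 2693 of 12400 from 1745 with all 8 arrays. As counts of probe sets, 12 of the 12 tested for untargeted subunits had both Smc1 arrays below both GFP arrays, where 29.9% of all probe sets did, and 0 of all 21 were called, where 12.7% of all probe sets were.

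The CapH2 and Smc2 knockdowns, which share the GFP arrays with each other and with Smc1, had smaller differences. Against GFP the 6 untargeted subunits had changes of -0.41 to -0.16 in CapH2 (median -0.24, all genes 0.012) and -0.27 to -0.16 in Smc2 (median -0.22, all genes -0.0046). All 6 were below 0 in both comparisons, as were 48.7 and 50.5% of all genes. Both arrays lay below both GFP arrays for 2 of 6 in CapH2 (Ncaph, and Smc4 by less than 1 unit; all genes 21.9%) and for 3 of 6 in Smc2 (all genes 21.7%). In limma's test 0 of the 6 were called in either. Without adjustment 1 passed in CapH2 (Ncaph) and 0 in Smc2, where 12.6% of all genes passed in each. By complex in the Smc1 comparison, the median change was -0.48 over the 3 condensin I subunits and -0.38 over the 3 of condensin II. Intervals of single subunits were wide: in the Smc2 group the 95% interval of Smc4 ran from -0.66 to 0.17, and in the CapH2 group that of Ncapd3 ran from -0.60 to 0.28 and that of Ncapg2 from -0.67 to 0.13.

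**Figure D3:**
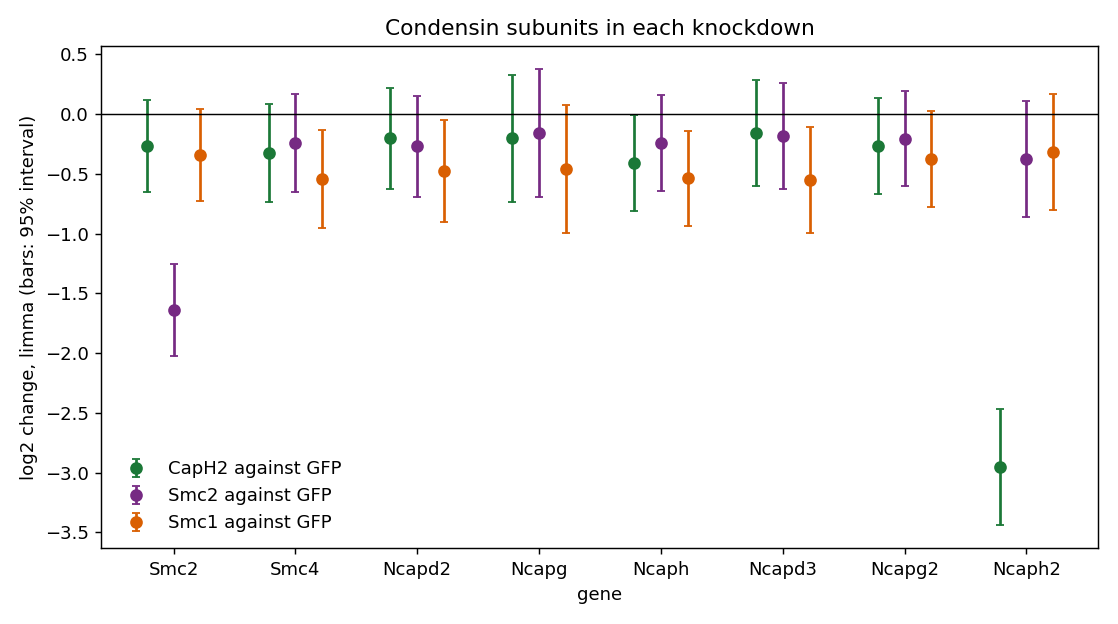
Log2 change of each subunit in the CapH2, Smc2 and Smc1 groups against GFP (brightest probe set, limma; bars are 95% intervals; the comparisons share the GFP arrays). All 24 changes are below 0, only Ncaph2 in CapH2 (-2.96) and Smc2 in Smc2 (-1.64) are called, and Smc1 has the lowest point for each untargeted subunit.

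Within the CapH2 and Smc2 groups the lower values came from 1 array each. The median difference of the 6 untargeted subunits from the GFP mean was -0.42 with CapH2 hairpin 3 and -0.069 with hairpin 4, and -0.32 with Smc2 hairpin 1 and -0.12 with hairpin 2. It was -0.60 and -0.40 on the Smc1 arrays and 0.097 and -0.097 on the GFP arrays. With CapH2 hairpin 3, Smc2 hairpin 1 and both Smc1 replicates, 6 of 6 untargeted subunits were below both GFP arrays, where 37.6, 42.1, 41.2 and 34.3% of all genes were. With CapH2 hairpin 4 it was 2 of 6 (all genes 33.2%) and with Smc2 hairpin 2 it was 3 of 6 (all genes 31.5%). On their targets, the CapH2 hairpins left 12.0 and 12.9% of Ncaph2, and the Smc2 hairpins 28.1 and 36.0% of Smc2.

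A sign of RNA and labelling quality moved with these array values. The ratio of 3′ to 5′ control probe sets for Actb was 1.67 and 1.98 for CapH2 hairpins 3 and 4 and 1.82 and 2.18 for Smc2 hairpins 1 and 2. The replicates of Smc1 had 1.70 and 1.84, and those of GFP 2.18 and 2.04. The 4 arrays with the lowest ratios were the 4 on which all untargeted subunits lay below GFP. The Gapdh ratio was also lowest for CapH2 hairpin 3, Smc2 hairpin 1 and Smc1 replicate 1, while Smc1 replicate 2 lay among the other arrays. It was 0.790 and 0.863 for CapH2, 0.813 and 0.845 for Smc2, 0.833 and 0.862 for Smc1 and 0.864 and 0.857 for GFP. With the log2 Actb ratio as a covariate, the median change of the untargeted subunits was -0.0077 in CapH2 (3 of 6 lower), -0.13 in Smc2 (5 of 6 lower) and -0.17 in Smc1 (5 of 6 lower). The members above 0 in that fit were Ncapd3 (0.14), Ncapg (0.22) and Smc4 (0.0041) in CapH2, Ncapg in Smc2 (0.0060), and Ncapg (0.045) and Ncaph2 (0.050) in Smc1. Ncaph2 and Smc2 were still called in their own knockdowns in that fit, at -2.65 (adjusted p = 0.00135) and -1.55 (0.00178). The ratio's part in the values of the untargeted subunits was not tested beyond this fit.

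Genes of G2 and mitosis moved with the same arrays. Over 33 such genes the median difference from the GFP mean was -0.29 and -0.089 with CapH2 hairpins 3 and 4, -0.25 and 0.053 with Smc2 hairpins 1 and 2, and -0.33 and -0.20 on the Smc1 arrays, with 0.087 and -0.087 on GFP. The 4 lowest arrays were again CapH2 hairpin 3, Smc2 hairpin 1 and both of Smc1. In bulk RNA, fewer cells in that phase and less RNA per cell cannot be told apart.

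**Figure D4:**
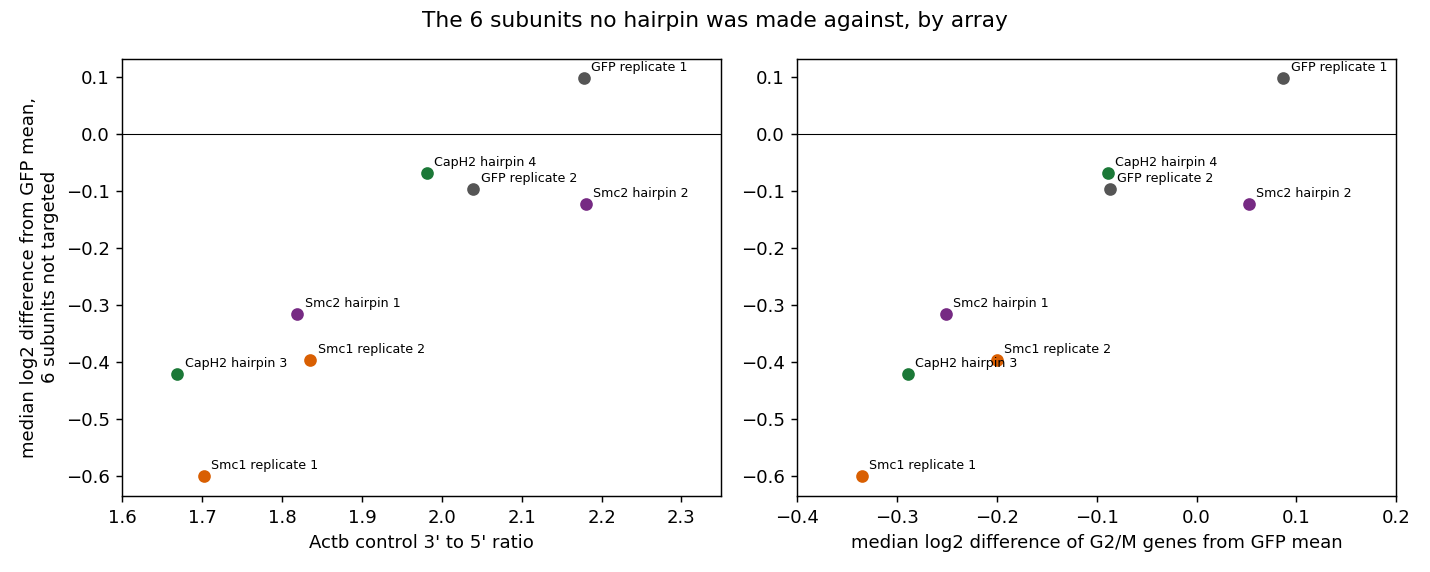
Median log2 difference from the GFP mean of the 6 untargeted condensin subunits on each of the 8 arrays, against the Actb control ratio (left) and the median difference of 33 G2 and mitosis genes (right). CapH2 hairpin 3, Smc2 hairpin 1 and both Smc1 replicates sit at the lower left of each panel, from -0.60 to -0.32, and the other 4 arrays between -0.12 and 0.097.

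Across the 8 arrays the untargeted subunits varied together, as a description over arrays that share processing and quality. Pearson's r of the 15 pairs had a median of 0.83 and ran from 0.54 to 0.95, the highest being Ncapg with Smc4. Over all 28 pairs the median was 0.58, and the lowest was -0.16 for Ncaph2 with Smc2, each lowered by its own hairpins. The genes most like each member over these arrays, by the same measure, were Itpr3 and Sycp2l for Ncapd2, Slc25a33 and Bdh1 for Ncapd3, Tnni3 and Birc2 for Ncapg, Tnfrsf1b and St6galnac6 for Ncapg2, and Maz and Rnf138 for Ncaph. For Smc4 they were 3110040N11Rik and Rdm1 (r = 0.992 and 0.991). Ncaph2 was nearest to Iigp1 and Dnajb5 (0.925 and 0.912) and Smc2 to H2ac19 and Slc6a6 (0.950 and 0.945). These neighbours did not hold: leaving out 1 array kept 2 to 7 of the 16, quantile normalization kept 3, median centring 5 and the mean over probe sets 1.

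Compared directly, the condensin knockdowns differed in their targets. Ncaph2 was lower in CapH2 than in Smc2 (log2 difference -2.58, limma adjusted p = 0.00428) and was the 1 subunit called, where 0.00806% of all genes were called. That call was lost without CapH2 hairpin 3 (adjusted p = 0.0545), with the groups compared alone (0.212), without the intensity trend (0.0968) and with the mean over probe sets (-1.34, 0.269). Smc2 was higher in CapH2 by 1.37 (95% interval 0.99 to 1.76, adjusted p = 0.0760), which missed the threshold. Its groups did not overlap, where 12.6% of all genes had both CapH2 arrays above both Smc2 arrays and 10.2% had them below. It passed without Smc2 hairpin 2 (1.55, adjusted p = 0.0330), under quantile normalization (0.0429) and with the Actb covariate (1.52, 0.00592). The untargeted subunits had differences from -0.17 to 0.066 with all groups overlapping, and each of the 6 turned its sign in at least 1 fit that left out an array. Their intervals did not exclude moderate differences: that of Ncaph ran from -0.57 to 0.23 and that of Ncapg from -0.58 to 0.49.

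Against the mean of CapH2 and Smc2, the Smc1 group had 2 of 8 subunits called, Ncaph2 (1.35, adjusted p = 0.00564) and Smc2 (0.61, adjusted p = 0.0367), where 7.85% of all genes were called. Both are the targets of hairpins in the reference groups, so these values describe those knockdowns. Without Smc1 replicate 1 the call of Ncaph2 was lost (adjusted p = 0.0716), and that of Smc2 was lost in 7 of the 8 fits that left out 1 array (all but Smc2 hairpin 2) with adjusted p from 0.0522 to 0.287. The 6 untargeted subunits had changes of -0.38 to -0.14, all below 0 as were 47% of all genes. Of these 0 were called by limma or passed without adjustment, where 23.7% of all genes passed. Ncapd3 (adjusted p = 0.216) and Smc4 (0.372) had both Smc1 arrays below all 4 condensin knockdown arrays, where 14.6% of all genes did.

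The condensin subunits were set beside other genes of their pathway. In the CapH2 and Smc2 comparisons 0 genes of any such list were called by limma. Of 23 regulators and partners of condensin, 1 was lower in Smc1 than in GFP, Cdca2 (-0.84, adjusted p = 0.0303), a mitotic chromosome protein that targets a phosphatase. In Smc1, where 4.69% of all genes were called lower and 9.38% higher, this is 1 of 23. The median of that list was -0.18, with 18 of 23 below 0 (all genes 47.7%). At an unadjusted p under 0.05 there were 6 of 23 in Smc1 (all genes 31.2%), and 1 in CapH2 and 0 in Smc2 (all genes 12.6% in each). For the 6 subunits of TFIIIC, which binds sites where condensin is known to load, 0 were called in Smc1 and 2 of 6 passed an unadjusted p under 0.05 (all genes 31.2%), with a median of 0.21. Among 33 genes of G2 and mitosis, 2 were lower in Smc1 (all genes 4.69%): Mybl2 (-1.03, adjusted p = 0.0243), a transcription factor of mitotic genes, and Dlgap5 (-0.80, 0.0371), a spindle protein. The median of that list was -0.29 in Smc1, -0.17 in CapH2 and -0.13 in Smc2.

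Among 19 cohesin and Smc5/6 subunits tested, 3 were lower and 1 higher in Smc1, where 4.69% of all genes were called lower and 9.38% higher. Smc1a, the target, changed by -2.95 (adjusted p = 8.04e-05) and Nsmce4a, of the Smc5/6 complex, by -0.56 (0.0439), while Stag1, a cohesin subunit, rose by 0.82 (0.0235). The remaining one, named after its value was seen, was Wapl, which releases cohesin (-0.59, adjusted p = 0.0461). The call of Wapl was not followed through the alternatives. Cdca2, Nsmce4a, Dlgap5 and Stag1 each lost their call when either Smc1 array or either GFP array was left out, and Mybl2 without Smc1 replicate 1, GFP replicate 1 or GFP replicate 2, with adjusted p from 0.0510 to 0.253 in these fits. With the Actb covariate, Cdca2 had an adjusted p of 0.218, Mybl2 0.159, Dlgap5 0.282, Stag1 0.0951 and Nsmce4a 0.341. In the same comparison 7 of 10 embryonic stem cell markers were lower (all genes 4.69%), among them Klf4 (-1.49, adjusted p = 0.00276), Nanog (-0.73, 0.00521) and Esrrb (-1.57, 0.00773), with a list median of -0.82. The call of Nanog was lost without Smc1 replicate 1 (0.0701), and that of Esrrb without Smc1 replicate 1 (0.0546), GFP replicate 1 (0.0589) or GFP replicate 2 (0.0607) and with the Actb covariate (0.0568).

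Of 10 fibroblast markers tested, 2 were higher in Smc1 (all genes 9.38%), Col3a1 (1.92, limma adjusted p = 0.0154) and Pdgfra (1.37, 0.0408), and 3 of 10 had changes below 0. Col3a1 was 408 and 190 on the Smc1 arrays against 55.9 and 68.5 on GFP, and Pdgfra 144 and 122 against 25.2 and 64.4. Both genes were below the array median on both GFP arrays. They passed the filter through other arrays, both of Smc1 among them, so these changes are measured from dim control values. Postn was 19.5 and 26.1 on the Smc1 arrays against 68.1 and 73.1 on GFP, all below their array medians. It was above the median on 3 arrays, both of CapH2 (133 and 89.6) and Smc2 hairpin 2 (91.4). So it passed the filter only through the groups it was then compared with, and that test is not independent of the filter. With values this dim, it was called lower against the condensin knockdowns (-1.41, limma adjusted p = 0.0337). That call was lost with the groups compared alone (0.0612) and in 7 of the 8 fits that left out 1 array (all but Smc2 hairpin 1), where adjusted p was 0.0584 to 0.249. The call of Col3a1 against GFP was lost without Smc1 replicate 1 (0.153), GFP replicate 1 (0.118) or GFP replicate 2 (0.0659) and with the Actb covariate (0.145). That of Pdgfra was lost without CapH2 hairpin 3 (0.0514), Smc1 replicate 1 (0.219), Smc1 replicate 2 (0.0969) or GFP replicate 1 (0.241), with no filter (0.0647), with the mean over probe sets (0.257) and with the covariate (0.272). The list median was 0.56 in Smc1, 0.52 in CapH2 and 0.044 in Smc2. The summed level of the 14 on the array was 1455 to 1755 in Smc1, 1166 to 1530 in CapH2, 967 to 1311 in Smc2 and 908 to 1008 in GFP. The part of these markers in the condensin values was not tested.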

How the data were processed

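Expression was measured on 8 one-colour Affymetrix 3′ arrays from 100 ng of total RNA each. The authors deposited intensity on a linear scale, with 44903 probe sets measured on each array. The probe summary and the scaling they used are not given in the sources used here. Of these probe sets, 34758 named 1 gene, 926 named several, 9206 named none and 64 were array controls. By gene identifier, 34554 matched the gene table of GRCm38.p6, with 0 symbols changed. The brightest probe set stood for a gene.

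Values were analysed as log2(value + 16), without further normalization. The change of a dim probe set is understated on that scale. Features were tested if above the median of the array on 2 or more of the 8 arrays (12400 genes, 21730 probe sets). All 8 arrays were fitted with limma 3.58.1 in R 4.3.3 as group means, with empirical Bayes moderation that follows an intensity trend (for genes, 4 degrees of freedom are residual and 5.95 prior). A call is a Benjamini-Hochberg adjusted p below 0.05 over all genes, or all probe sets, of 1 of the 5 comparisons. An exact permutation test of 2 arrays against 2 cannot go below p = 0.333. The labels call only Smc1 and GFP arrays biological replicates, and the spread used in each test pools these with differences between hairpins. Each group holds only 2 arrays, which limits the precision. The fit was run on simulated data with values drawn independently for each gene and array. Those data held no array quality effect and no difference between hairpins, so they cannot check the calls under such effects. Figures were drawn with matplotlib 3.10.9.

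The members and gene lists were chosen with earlier results of these data known. The text names all members, the targets, up to 3 called genes of each list per comparison, and the 2 genes nearest to each member by Pearson's r. Alternatives were the pseudocount, scaling, filter, arrays in the fit, intensity trend, Actb covariate, replicate block, probe set rule and leaving out each array.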

Additional observations from a re-analysis of the deposited data

Results flagged for a closer look

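Ncaph2 differed between the condensin knockdowns. Its change against GFP was lower in CapH2 than in Smc2 by -2.58 on the log2 scale, a difference with a limma adjusted p of 0.00428.

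On the dim Ncaph2 probe set 1423699_at, the change against GFP was -1.15 in CapH2, with both arrays below both GFP arrays, and 0.31 in Smc2 and 0.29 in Smc1, with all of their arrays above the GFP mean. CapH2 minus Smc2 was -1.46, which did not pass limma's test (adjusted p = 0.990), and CapH2 minus Smc1 was -1.44, which was not tested.

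On the Smc2 probe set 1429659_at, CapH2 lay above the GFP mean on both arrays (0.082) and the other knockdowns below it. Both CapH2 arrays (208 and 203) lay between the GFP arrays (239 and 156), and their change did not pass limma's test (SE 0.317, adjusted p = 0.933). The difference of CapH2 from Smc2 was 1.63 (limma adjusted p = 0.990), and that from Smc1 was 0.27, which was not tested.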

How the results depend on the processing

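Over 19 alternatives, 8 of which left out 1 array, the subunits gave 722 single values: 669 kept their direction and side of the threshold, 18 lost a call, 8 gained one and 27 changed sign, none of them called on either side. These values leave out Ncaph2 in CapH2 and Smc2 in Smc2, whose calls were lost in several fits, as described separately. The untargeted subunits were below GFP under both other scalings. Median centring moved the median of all genes in Smc2 against GFP from -0.0046 to 0.10.

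Ncaph2 in CapH2 ran from -3.02 to -2.89 when 1 array was left out, and was -1.44 with the mean over probe sets. Smc2 in Smc2 ran from -1.82 to -1.46 when 1 array was left out, was -1.64 and no longer called with the groups compared alone or without the trend, and -1.40 with the mean over probe sets. Medians of the untargeted subunits ran from -0.42 to -0.069 in CapH2, -0.32 to -0.10 in Smc2 and -0.60 to -0.40 in Smc1 when 1 array was left out. With the Actb covariate they were -0.0077 in CapH2 and -0.17 in Smc1.

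The sign changes were these. With the Actb covariate, Ncapd3, Ncapg and Smc4 in CapH2 were 0.14, 0.22 and 0.0041, Ncapg in Smc2 was 0.0060, Ncapg and Ncaph2 in Smc1 were 0.045 and 0.050, and Ncapg, Ncapg2 and Smc4 in CapH2 against Smc2 were 0.21, 0.059 and 0.12. With the mean over probe sets, Ncapd3 in Smc2 was 0.13, and Ncapd3 and Smc4 in CapH2 against Smc2 were -0.21 and 0.00059. Under median centring Ncapd3 in CapH2 against Smc2 was -0.013. When 1 array was left out, Ncapd3 ran from -0.39 to 0.076 in CapH2, and Ncapg from -0.46 to 0.053 in CapH2 and -0.45 to 0.14 in Smc2. In CapH2 against Smc2 the ranges were -0.10 to 0.24 for Ncapd2, -0.21 to 0.26 for Ncapd3, -0.35 to 0.25 for Ncapg, -0.24 to 0.12 for Ncapg2, -0.41 to 0.071 for Ncaph and -0.31 to 0.15 for Smc4.

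Counts of called subunit genes, 1 each in CapH2, Smc2 and CapH2 against Smc2, 0 in Smc1 and 2 in Smc1 against the condensin knockdowns, became, in that order, 0, 0, 0, 0 and 1 with the mean over probe sets, 1, 0, 0, 3 and 1 with the groups compared alone, and 1, 0, 0, 0 and 1 without the trend. Over all 12400 genes the main counts were 2, 2, 1, 1745 and 973. They became 1, 1, 0, 1191 and 689 with the mean over probe sets. With the groups compared alone they were 11, 0, 0, 2693 and 608, and without the trend 1, 0, 0, 1307 and 661. CapH2 against Smc2 gave 2 under quantile normalization and with the covariate, where 2 of all genes were called in each. Smc1 against the condensin knockdowns gave 1 under median centring (849 of all 12400 genes) and 1 with no filter (602 of 18140). Leaving out 1 array gave 0 to 1, 0 to 1, 0 to 2, 0 to 1 and 0 to 2. Counts of called probe sets (1, 1, 1, 0 and 2 in the same order) became 2, 0, 0, 5 and 1 with the groups compared alone and 0, 0, 0, 0 and 1 without the trend. With the covariate 3 were called in Smc2, 2 in CapH2 against Smc2 and 5 in Smc1 against the condensin knockdowns. Calls over all probe sets were not counted for the alternatives. Over all genes, the covariate took calls from 2 to 58 in Smc2 and from 973 to 1662 in Smc1 against the condensin knockdowns. Without the filter the counts were 0 in Smc2 and 1 in Smc1 against the condensin knockdowns, and under median centring 1 in the latter. Leaving out 1 array gave 0 to 2, 0 to 4, 0 to 2, 0 to 2 and 0 to 5. The cause of these changes was not tested.

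The Smc1 and GFP labels share the replicate numbers 1 and 2. Deviations of same-numbered arrays from their group means correlated at r = 0.066 over 12400 genes. With 2 arrays a group both pairs must give the same r, so this is 1 value. On it the numbers were not taken as pairing. A replicate block was fitted that set replicate 2 of Smc1 and GFP apart from all other arrays. All CapH2 and Smc2 arrays were thus placed with replicate 1, so it does not pair their hairpins. In that fit Smc2 in Smc2 was -1.74 (limma adjusted p = 0.0954). The count of called subunits in Smc2 was 0 of genes and 0 of probe sets, and that in Smc1 against the condensin knockdowns 1 and 1. Over all 12400 genes, 0 were called in Smc2 and 298 in Smc1 against the condensin knockdowns. All called genes in Smc1 against GFP went from 1745 to 1373. Standard errors of 0.172 to 0.240 (log2) over the subunits limit what 2 arrays a group can show.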
